A study of Mus musculus with 48 samples.

Results

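Gasdermins are proteins that can open pores in cell membranes, and their transcripts were followed here in mouse colon over the circadian day, with and without the clock gene Bmal1 in the gut epithelium. The genes were taken as the rows of the read count table whose Ensembl identifiers carry the symbols Gsdma, Gsdmc, Gsdmc2, Gsdmc3, Gsdmc4, Gsdmcl2, Gsdmd and Gsdme in GENCODE vM21, 8 of 55401 rows. Of these, 7 passed the filter on low counts and were tested among 15073 genes. Gsdmc did not pass: it had 1 read in each of 3 mice and none in the other mice, and a count of 0 allows up to 3 reads.

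RNA of colon tissue was sequenced from 48 male mice aged 18 to 20 weeks, killed on the second day of constant darkness with food always available, with 4 animals per genotype every 4 h at 6 circadian times (CT), from CT1 to CT21. Control mice carried floxed Bmal1 alleles without Cre (Bmal1 flox/flox). Bmal1 IEC-/- mice carried the same floxed alleles and Cre under the Villin promoter, which acts in intestinal epithelial cells, so that muscle, immune and connective tissue cells of the same piece of colon keep the gene. CT1, CT5 and CT9 are called day and the other times night. The study left out low-quality samples and shows 46 colon samples, without naming those left out, and no label marks them. They were inferred here. Scaling factors implied by the study's normalized counts were matched best without SV384 and SV385 of the Bmal1 IEC-/- group at CT1. The largest relative deviation was then 1.81e-07, against 0.00442 or more for other pairs of that group. So 46 mice entered the fits here, all but these 2, whose values are given where they bear on a result. That leaves 24 control and 22 Bmal1 IEC-/- mice, with 2 at CT1.

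Total counts ran from 3144997 to 4785844 reads per mouse. As a check of the labels, Arntl, the symbol of Bmal1 in the annotation, went from a mean of 260.0 normalized counts at CT1 to 26.4 at CT9 in control mice and from 177 to 114 in Bmal1 IEC-/- mice, and its curve over time differed between the genotypes (edgeR adjusted p = 4.07e-13). Nr1d1 and Dbp, direct targets of the BMAL1 protein, were lower in Bmal1 IEC-/- mice by log2 differences of -1.49 and -0.88 (edgeR adjusted p = 2.15e-13 and 7.48e-06).

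Most gasdermins have an N-terminal part that forms the pore and a C-terminal part that holds it in check until a protease cuts between them. Inflammatory caspases cut gasdermin D, the product of Gsdmd, and the pore then releases interleukins and can end in a lytic cell death called pyroptosis. Gasdermin E is the product of Gsdme, while the Gsdmc genes are known from the epithelium of the large intestine and Gsdma from skin and upper gut. In mice Gsdmc has been duplicated into a row of neighbouring genes, which type 2 cytokines such as interleukin 4 and interleukin 13 raise in gut epithelium.

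The 5 members of that row lie side by side on chromosome 15 in GRCm38. On the minus strand are Gsdmc (ENSMUSG00000079025.9, 63775968 to 63808759), Gsdmc2 (ENSMUSG00000056293.12, 63824346 to 63845177), Gsdmc3 (ENSMUSG00000055827.13, 63857724 to 63878558) and Gsdmc4 (ENSMUSG00000055748.12, 63891264 to 63912297). Gsdmcl2 (ENSMUSG00000093867.7, 63880707 to 63890512) sits between Gsdmc3 and Gsdmc4 on the plus strand, and the annotation calls it a transcribed pseudogene. Gsdmd (ENSMUSG00000022575.5, 75862327 to 75867408, plus strand) is elsewhere on the same chromosome. Gsdma (ENSMUSG00000017204.4, 98664351 to 98677708, plus strand) is on chromosome 11 and Gsdme (ENSMUSG00000029821.15, 50188888 to 50263862, minus strand) on chromosome 6.

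The copies are alike enough to bear on how their reads can be told apart, so 2 stretches of their coding sequence are shown. The coding sequences of Gsdmc2 and Gsdmc3 were identical at 97.08% of aligned bases, Gsdmc2 and Gsdmc4 at 93.51%, and Gsdmc3 and Gsdmc4 at 93.44%, whereas Gsdmc was identical to any of them at 86.00% to 87.14%. Gsdma, Gsdmd and Gsdme were identical to one another and to the copies at 38.84% to 50.80%. Bases 85 to 204 of the coding sequence are the same in Gsdmc2 (chr15:63835740-63835859), Gsdmc3 (chr15:63869094-63869213) and Gsdmc4 (chr15:63902727-63902846), all on the minus strand of GRCm38, within 1 exon, and read 5′ to 3′:
Gsdmc2, Gsdmc3 and Gsdmc4: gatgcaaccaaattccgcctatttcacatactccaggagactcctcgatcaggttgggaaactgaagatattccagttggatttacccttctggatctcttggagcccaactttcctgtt

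The stretch of 120 bases with most differences starts at coding base 759 in Gsdmc2 and Gsdmc3 and at 765 in Gsdmc4, lies on exons within chr15:63826868-63828052, chr15:63860298-63861471 and chr15:63893815-63894958 on the minus strand, and holds 27 positions, in capitals, at which the copies are not all alike:
Gsdmc2: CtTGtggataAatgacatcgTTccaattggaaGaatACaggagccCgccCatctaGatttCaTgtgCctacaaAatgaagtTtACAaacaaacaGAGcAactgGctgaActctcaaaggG
Gsdmc3: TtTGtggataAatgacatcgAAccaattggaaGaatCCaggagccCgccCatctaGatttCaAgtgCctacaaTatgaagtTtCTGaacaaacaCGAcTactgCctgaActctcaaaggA
Gsdmc4: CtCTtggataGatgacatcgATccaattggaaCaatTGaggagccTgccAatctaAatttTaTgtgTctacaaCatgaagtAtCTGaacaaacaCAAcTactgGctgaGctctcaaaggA
A read from the first stretch alone cannot be given to 1 copy, and a read across the second can.

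The search for shared windows took a single whole transcript of each gene. Of the windows of 150 bases of Gsdmc3, 19.31% were found unchanged in a transcript of another gene, as were 16.64% of Gsdmc2, 8.833% of Gsdmc4 and 3.147% of Gsdmc. Gsdma, Gsdmcl2, Gsdmd and Gsdme had 0 such windows. The authors kept reads with a mapping quality of at least 4, which drops reads that map equally well to several places. The counts of Gsdmc2, Gsdmc3 and Gsdmc4 are therefore uncertain in how reads of alike stretches were divided or lost, and they are also given as a sum.

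**Figure D1:**
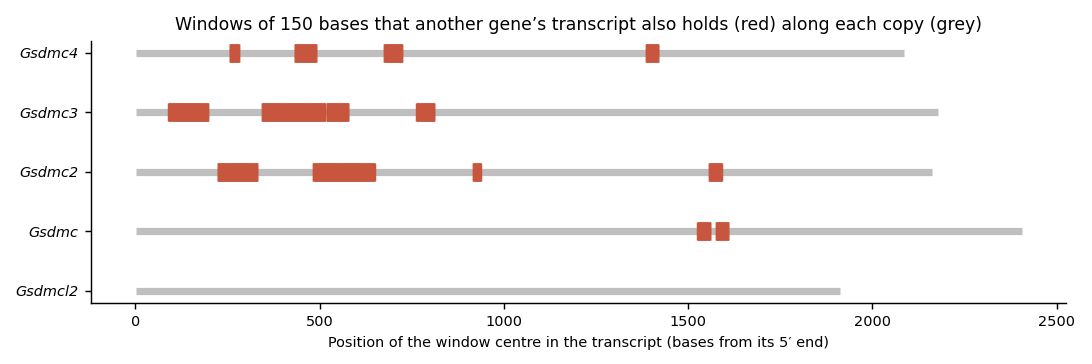
Each grey bar is the transcript of 1 Gsdmc copy, with the position in bases from its 5′ end on the horizontal axis, and red marks are centres of windows of 150 bases that a transcript of another gene also holds. Shared windows sit in blocks, mostly in the 5′ part of Gsdmc2, Gsdmc3 and Gsdmc4, and Gsdmcl2 has 0.

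The RefSeq promoter table (GRCm38.p6) holds Gsdmc3 among the copies. It is printed because the copies moved together over the day, and the 250 bases before its start are chr15:63878559-63878808 on the minus strand:
Gsdmc3: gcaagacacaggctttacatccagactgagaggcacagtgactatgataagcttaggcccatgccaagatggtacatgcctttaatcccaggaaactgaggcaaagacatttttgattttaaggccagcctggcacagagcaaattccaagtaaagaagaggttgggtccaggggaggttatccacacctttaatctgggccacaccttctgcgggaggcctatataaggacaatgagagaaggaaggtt
On either strand the window holds neither CACGTG (the E-box that BMAL1 binds), nor AGGTCA (the core of a Rev-erb element), nor TTATGNAA (a D-box), motifs of which none contains another. The search covered the whole entry of the promoter table, chr15:63878509-63878808, which also runs past the start, and found none of the 3 there. Of 32851 promoter entries searched whole, 7.15% hold the first, 16.3% the second and 3.38% the third. The 3 searches say nothing of elements outside this entry.

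Compared per length, as CPM (counts scaled to a library of fixed size) per kilobase of exon, Gsdmc2 and Gsdmc4 had the highest mean levels of the gasdermins in control colon. The level was 146 ± 58.8 (SD, n = 24) for Gsdmc2, 125 ± 57.0 for Gsdmc4, 56.7 ± 8.32 for Gsdmd and 51.4 ± 21.7 for Gsdmc3. Gsdmcl2 was at 6.97 ± 3.42, Gsdme at 3.98 ± 0.457 and Gsdma at 1.79 ± 0.537. Neighbours in this order differed by less than the larger of their SDs at Gsdmc2 and Gsdmc4, at Gsdmd and Gsdmc3, and at Gsdmcl2 and Gsdme. The length used was that of all annotated exons of a gene together. For Gsdme it was 12742 bases, against 2502 in the transcript searched for shared windows, and for Gsdmcl2 3175 against 1911. The places of Gsdme and Gsdmcl2 in the order therefore depend on the length chosen, in both genotypes. In Bmal1 IEC-/- colon Gsdmc4 came first, at 228 ± 67.5 (SD, n = 22), with Gsdmc2 at 218 ± 58.1, Gsdmc3 at 80.0 ± 22.7, Gsdmd at 59.3 ± 7.51, Gsdmcl2 at 13.8 ± 5.42, Gsdme at 3.66 ± 0.546 and Gsdma at 2.89 ± 0.952. Since whole tissue was sequenced, fewer cells of a type and less RNA per cell cannot be told apart in any value given here.

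The first question was whether the gasdermins of control colon follow the time of day. The Gsdmc copies did, with the highest means at CT5 and the lowest at CT13. At CT5 the control mice had 1306, 2080.5, 2195 and 2292 normalized counts of Gsdmc2, and at CT13 they had 519.8, 631, 690.1 and 1337. All but 1 of the mice at CT5 lay above the highest mouse at CT13. For Gsdmc4 the values were 1118, 1574, 1734 and 1886 at CT5 and 227, 325, 349 and 857 at CT13, so that the groups did not overlap, and the ratio of the means was 3.59. Gsdmc3 had 432, 731, 769 and 773 at CT5 and 178, 181, 221 and 433 at CT13, a ratio of 2.67 against 2.48 for Gsdmc2.

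The pseudogene Gsdmcl2 had the same peak and trough, with 84.0, 113, 129 and 149 normalized counts at CT5 and 18.3, 21.7, 29.5 and 64.7 at CT13. Its mean at CT1, 119, was almost that at CT5. Gsdma was low throughout, from 5.02 to 29.8 in control mice, with its highest mean of 24.6 at CT9 and its lowest of 14.3 at CT21. Gsdmd had a later and shallower curve than the Gsdmc copies. It had 398, 412, 431 and 508 at CT1 and 568, 581, 644 and 654 at CT9, groups that did not overlap, with a ratio of 1.399 between these means. Gsdme stayed between 162 and 250.5 in all control mice.

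JTK_cycle, an exact rank test for a rhythm of 24 h with p adjusted over 12 phases, called 6 of the 7 members tested in control mice, where it called 48.8% of all genes tested. Adjusted p from this exact test was 0.000732 for Gsdmcl2 with a peak at 2 h, 0.000935 for Gsdmc4 at 2 h, 0.00367 for Gsdmc2 and 0.00454 for Gsdmc3 at 4 h, 0.0254 for Gsdma at 6 h, and 0.000441 for Gsdmd at 10 h. Gsdme was not called (JTK_cycle exact adjusted p = 0.0921), but passed without SV421, SV447 or SV468 (exact adjusted p = 0.0282, 0.0404 and 0.0404). The best-fitting phases, in steps of 2 h from mice sampled 4 h apart, thus came in the order of the Gsdmc row, Gsdma and Gsdmd. Differences in phase were not tested, and Gsdma and Gsdmd both had their highest mean at CT9. The call of Gsdma was lost when any 1 of 5 control mice was left out (SV398, SV415, SV420, SV443 or SV447), with an adjusted p of at most 0.0794.

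A cosine fitted by least squares had an amplitude of 46.1% of the mean for Gsdmc4, 37.8% for Gsdmc2, 38.4% for Gsdmc3, 48.7% for Gsdmcl2, 26.6% for Gsdma, 15.1% for Gsdmd and 8.27% for Gsdme. As a count of normalized reads the amplitude was 492 ± 116 (SE) for Gsdmc2 and 78.4 ± 14.8 for Gsdmd. The summed reads of Gsdmc2, Gsdmc3 and Gsdmc4, which do not depend on how reads were divided between the copies, were called too (JTK_cycle exact adjusted p = 0.00237, peak at 4 h), with an amplitude of 40.4% of the mean.

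**Figure D2:**
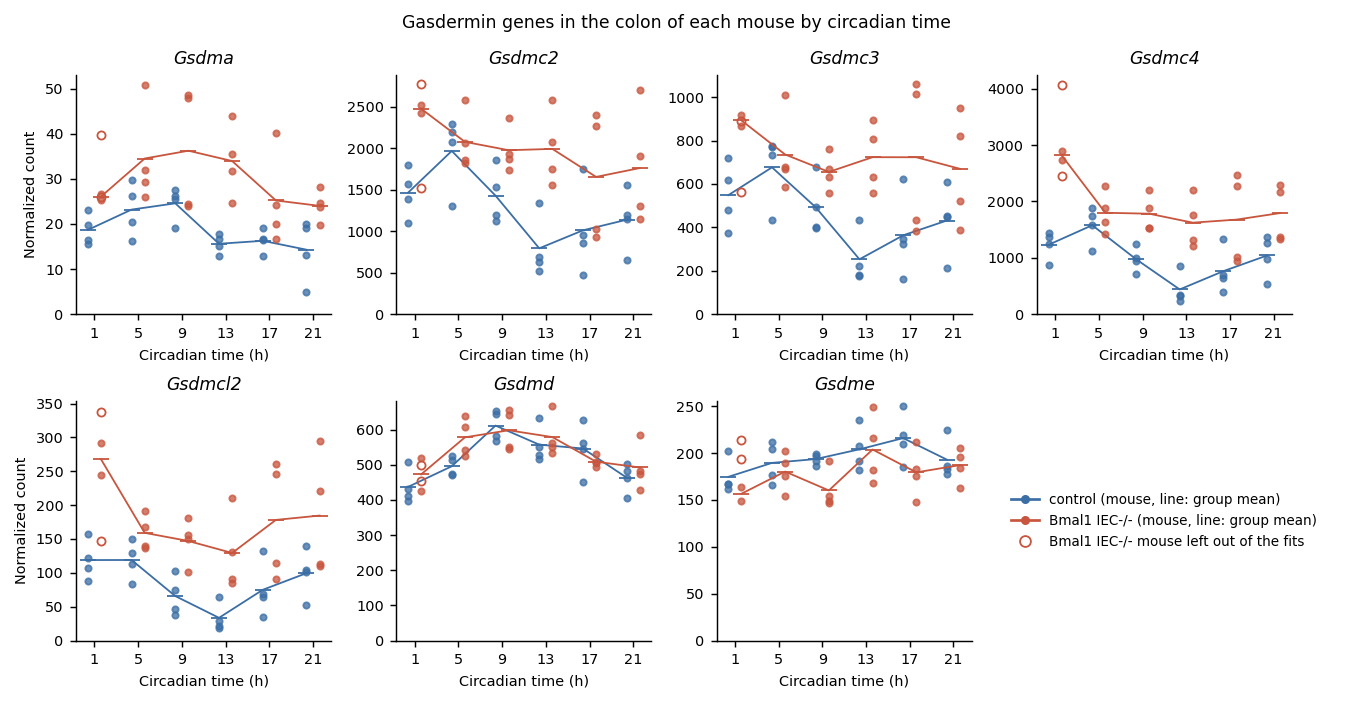
Normalized counts (vertical axes, starting at 0) of the 7 tested members in every mouse against circadian time in hours. Points are mice, lines join group means, blue is control and red Bmal1 IEC-/-, and hollow points are the 2 mice left out of the fits. The blue means of Gsdmc2, Gsdmc3, Gsdmc4 and Gsdmcl2 reach their lowest value at CT13, where every red point lies above every blue point.

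A model with a term for each time, which assumes no shape, called Gsdmc2, Gsdmc3, Gsdmc4, Gsdmcl2 and Gsdmd, 5 of 7 members, against 44.0% of all genes (edgeR adjusted p = 0.00718, 0.0101, 0.000454, 0.00367 and 0.000571). Gsdma and Gsdme were not called (edgeR adjusted p = 0.112 and 0.301). Between day and night, 4 members were higher by day in control mice, against 19.6% of all genes. The log2 difference was 0.73 ± 0.18 (SE) for Gsdmc2, 0.71 ± 0.19 for Gsdmc3, 0.76 ± 0.21 for Gsdmc4 and 0.53 ± 0.18 for Gsdma (edgeR adjusted p = 0.00106, 0.00301, 0.00436 and 0.0146). Gsdmcl2 had a log2 difference of 0.53 ± 0.26, Gsdmd -0.02 ± 0.08 and Gsdme -0.13 ± 0.07 (edgeR adjusted p = 0.105, 0.891 and 0.136). Without SV417 or SV433 Gsdmcl2 passed, at 0.65 and 0.68 (edgeR adjusted p = 0.0483 and 0.0394).

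The summed level of 8 genes of the crypt base and of cycling cells also had its lowest control mean at CT13, 1113 ± 58.0 normalized counts (SD, n = 4) against 2456 ± 553 at CT1. JTK_cycle called 7 of these 8 genes in control mice, where it called 48.8% of all genes tested. The summed level of 8 genes of surface colonocytes was 52922 ± 5452 at CT5 and 54965 ± 3040 at CT13, and JTK_cycle called 4 of these 8. The part of cell composition in the curves of the gasdermins was not tested.

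The same tests called 1 gasdermin in Bmal1 IEC-/- mice, Gsdmd. JTK_cycle gave an exact adjusted p of 0.00123 with a peak at 10 h, the same phase as in control mice, where 28.5% of all genes were called in Bmal1 IEC-/- mice. Values of Gsdmd were 426 and 520.2 at CT1 and 546, 549.9, 641 and 656 at CT9, and the 2 mice left out had 453 and 501 at CT1. The amplitude was 11.5% of the mean. With a term for each time, Gsdmd had an edgeR adjusted p of 0.0429 (21.8% of all genes called), a call that was lost under 23 of the 46 fits that leave out 1 mouse, with values from 0.0124 to 0.118.

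The other members passed neither test in Bmal1 IEC-/- mice. The JTK_cycle exact adjusted p was 0.112 for Gsdma, 0.280 for Gsdmcl2, 0.543 for Gsdmc4 and 1 for Gsdmc2, Gsdmc3 and Gsdme. Gsdma passed when any 1 of 3 Bmal1 IEC-/- mice was left out (SV400, SV418 or SV481), with an adjusted p as low as 0.0246. At CT13 the Bmal1 IEC-/- mice had 1558, 1751, 2076 and 2588 normalized counts of Gsdmc2, and at CT5 1817, 1859, 2058 and 2579, ranges that overlap widely. At CT17 and CT21 mice of both genotypes fell far apart: in Bmal1 IEC-/- mice Gsdmc2 was at 935, 1023, 2266 and 2398 at CT17 and at 1143, 1299, 1910.3 and 2698 at CT21, and in control mice it ran from 479 to 1751 and from 654 to 1560.1.

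The fitted amplitude was 11.5% of the mean for Gsdmc2, 5.41% for Gsdmc3, 16.9% for Gsdmc4 and 25.0% for Gsdmcl2. No member differed between day and night in Bmal1 IEC-/- mice, where 14.8% of all genes did, and the log2 differences of the Gsdmc copies were 0.23 ± 0.18 (SE), 0.06 ± 0.20 and 0.23 ± 0.22 for Gsdmc2, Gsdmc3 and Gsdmc4 (edgeR adjusted p = 0.438, 0.886 and 0.528).

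A rhythm called in 1 genotype and not in the other is not by itself a difference, so the difference was tested. A change of the fitted cosine between genotypes was called for 0 of 7 members in edgeR, against 0.935% of all genes, and the smallest unadjusted p were 0.0320 for Gsdmc3 and 0.0508 for Gsdmc4 (adjusted p = 0.418 and 0.487). At an unadjusted p under the same threshold of 0.05, Gsdmc3 was the 1 member of 7 to pass, where 1551 of all 15073 genes did. DESeq2 also called 0 members for this change. The difference between genotypes in the day against night contrast was called for 0 of 7 members as well, against 0.0531% of all genes. For Gsdmc3 it was -0.66 ± 0.28 (SE; edgeR adjusted p = 0.484, unadjusted p = 0.0217), with a 95% interval from -1.20 to -0.11 before adjustment. For Gsdmc2 the interval ran from -0.9996 to 0.004, and for Gsdmc4 from -1.13 to 0.08.

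The second question was whether the level differs between genotypes. Over all times, 5 of 7 members were higher in Bmal1 IEC-/- mice, against 4.83% of all genes higher. All 5 were also past a fold change of 1.5, against 0.677% of all genes. Gsdmc4 rose from a median of 989 normalized counts in control mice (227 to 1886, n = 24) to 1816 (943 to 2899, n = 22), a log2 difference of 0.98 ± 0.15 (SE; edgeR adjusted p = 3.09e-06). Gsdmcl2 rose from a median of 85.9 (18.3 to 158) to 154 (85.3 to 295), 1.09 ± 0.16 (edgeR adjusted p = 1.23e-06). The ranges of the genotypes overlap for both.

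Gsdmc2 had a median of 1252 in control mice (479 to 2292) and 1923 in Bmal1 IEC-/- mice (935 to 2698), a log2 difference of 0.65 ± 0.13 (SE; edgeR adjusted p = 5.06e-04). Gsdmc3 had 441 (162 to 773) and 675 (386 to 1059), 0.72 ± 0.15 (edgeR adjusted p = 4.29e-04). Gsdma, at a far lower level, had medians of 18.4 (5.02 to 29.8) and 26.4 (16.6 to 50.8), 0.68 ± 0.12 (edgeR adjusted p = 3.68e-05). All 5 calls held when any 1 mouse was left out and in each other fit run.

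Gsdmd and Gsdme did not pass. Gsdmd had medians of 515 (398 to 654) and 538 (426 to 669), with a log2 difference of 0.05 ± 0.04 (SE; edgeR adjusted p = 0.531) and a 95% interval from -0.03 to 0.13. Gsdme had 192 (162 to 250.5) and 178 (146 to 249), with a log2 difference of -0.14 ± 0.05 (edgeR adjusted p = 0.067). Without SV395, SV421 or SV442 Gsdme passed, at -0.16, -0.15 and -0.15 (edgeR adjusted p = 0.0222, 0.0454 and 0.0462).

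**Figure D3:**
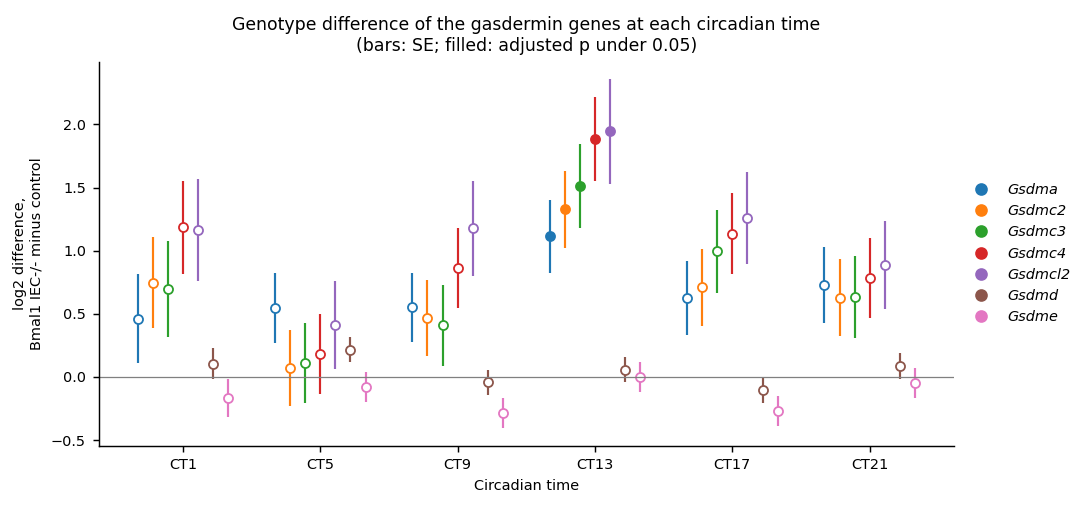
The log2 difference between Bmal1 IEC-/- and control mice (vertical axis, with SE) of each member at each circadian time, from the edgeR fit with a term for each genotype and time. Filled points passed an adjusted p under 0.05: 5 members at CT13, and none at the other times.

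At single times the call was made at CT13, the time of the control trough. There 5 of 7 members were higher, against 2.14% of all genes higher. Gsdmc4 was at 227, 325, 349 and 857 in control mice and at 1217, 1323, 1755 and 2199 in Bmal1 IEC-/- mice, a log2 difference of 1.88 ± 0.33 (SE; edgeR adjusted p = 1.93e-04). Gsdmcl2 was at 18.3, 21.7, 29.5 and 64.7 against 85.3, 90.7, 131 and 211, 1.94 ± 0.41 (edgeR adjusted p = 0.00241). No mouse of one genotype reached the range of the other for either gene.

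Gsdmc3 at CT13 was at 178, 181, 221 and 433 against 559, 633, 807 and 895, a log2 difference of 1.51 ± 0.33 (SE; edgeR adjusted p = 0.00353). Gsdmc2 differed by 1.33 ± 0.31 (edgeR adjusted p = 0.00589). Gsdma was at 12.9, 15.2, 16.6 and 17.7 against 24.7, 31.7, 35.5 and 43.9, 1.11 ± 0.29 (edgeR adjusted p = 0.0157), a call that was lost without SV397 or SV449 (edgeR adjusted p = 0.0633 and 0.0756). The groups did not overlap for any of these 3 genes. For how many of all genes tested the groups do not overlap at CT13 was not counted. Gsdmd and Gsdme differed by 0.06 ± 0.10 and 0.00 ± 0.12 at this time (edgeR adjusted p = 0.833 and 0.997).

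Cell type markers also differed at CT13. The summed level of the 8 surface colonocyte genes ran from 51508 to 58549 in control and from 44025 to 46529.5 in Bmal1 IEC-/- mice, and that of the 8 genes of the crypt base and of cycling cells from 1057 to 1167 and from 1258 to 1516, with no overlap in either list. In edgeR 4 of the 8 colonocyte genes were lower (Car4, Slc26a3, Krt20 and Guca2a), and 1 of the 8 crypt genes, Mki67, was higher, where 345 of all 15073 genes were lower and 323 higher. The goblet cell gene Zg16 was higher too, 1 of 7 in its list, whose summed levels overlapped. Summed fibroblast genes did not overlap either, with 1 of 6, Pdgfra, lower, while the other marker lists overlapped. Lack of overlap was not limited to cell type markers. Summed clock genes did not overlap at CT13, nor did the inflammasome genes and pore regulators listed further below, although 0 of 9 pore regulators were called. The part of the cell type markers in the result was not tested.

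At the other times no member passed in edgeR, where 1.21% of all genes were called at CT1, 0.445% at CT5, 1.78% at CT9, 1.05% at CT17 and 0.378% at CT21. The log2 difference of Gsdmc4 was 1.18 ± 0.37 (SE) at CT1, 0.18 ± 0.31 at CT5, 0.86 ± 0.32 at CT9, 1.13 ± 0.32 at CT17 and 0.78 ± 0.32 at CT21 (edgeR adjusted p = 0.091, 0.999, 0.238, 0.0785 and 0.445). That of Gsdmc2 was 0.75 ± 0.36, 0.07 ± 0.30, 0.46 ± 0.30, 0.71 ± 0.30 and 0.63 ± 0.30 in the same order. The estimates at CT5, the control peak, are thus the smallest of the 6 for both genes, and whether the difference changes with time is what the tests of the curve, which called 0 members, address.

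At CT17 leaving out the control mouse SV417 gave calls for Gsdmc3, Gsdmc4 and Gsdmcl2 (edgeR adjusted p = 0.0334, 0.00925 and 0.0189). Gsdmc4 also passed without SV399, SV421 or SV437, and Gsdmcl2 without SV437.

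At CT1 the fit rests on 2 Bmal1 IEC-/- mice, with 2736 and 2899 normalized counts of Gsdmc4 against 864, 1246, 1377 and 1437 in control mice. The 2 mice left out had 2451 and 4058, also above all 4 control mice. With them, Gsdmc4 and Gsdmcl2 passed at CT1 (edgeR adjusted p = 0.00308 and 0.0187) in a fit that called 3616 of 14618 genes at this time. For Gsdmc2 the mice left out had 1517 and 2775 against 1097 to 1805 in control mice, so that the groups then overlapped.

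Whether the copies differed in their rise was not tested, and their shares of the reads of the row describe it. In control mice Gsdmc2 held 46.4% ± 3.94 (SD, n = 24) of the reads of Gsdmc, Gsdmc2, Gsdmc3, Gsdmc4 and Gsdmcl2, Gsdmc4 34.5% ± 4.06, Gsdmc3 16.2% ± 1.10 and Gsdmcl2 2.93% ± 0.703. In Bmal1 IEC-/- mice Gsdmc2 held 41.8% ± 3.07 (SD, n = 22), Gsdmc4 39.2% ± 3.35, Gsdmc3 15.4% ± 1.55 and Gsdmcl2 3.57% ± 0.675. These shares rest on 873 to 7298 reads per mouse and carry no test.

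Over the control day the share of Gsdmc4 was 36.5% ± 1.43 (SD, n = 4) at CT5, 27.8% ± 3.27 at CT13 and 38.3% ± 2.54 at CT21, and that of Gsdmc2 went the other way, with 45.3% ± 0.639, 53.2% ± 2.41 and 42.3% ± 2.07. The shares of Gsdmc4 at CT13, 23.9% to 31.8%, lay below those at CT5 and CT21. Gsdmc3 kept 15.5% to 16.9% at every time as a mean. At CT13 Gsdmc4 held 36.1% ± 1.11 in Bmal1 IEC-/- mice, each of them above every control mouse at CT13.

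**Figure D4:**
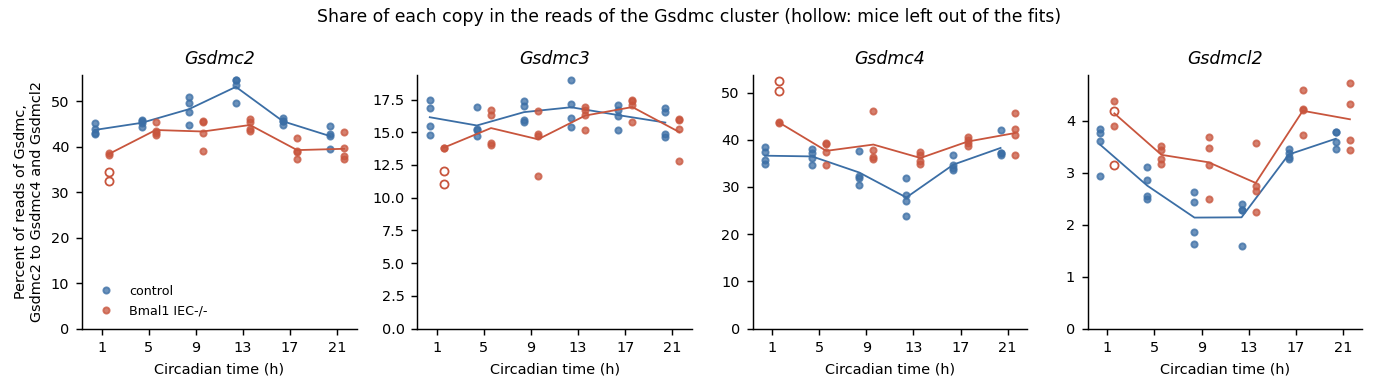
Share of Gsdmc2, Gsdmc3, Gsdmc4 and Gsdmcl2 in the reads of the Gsdmc row of each mouse (vertical axes in percent, starting at 0) against circadian time in hours. Points are mice, lines join group means, blue is control and red Bmal1 IEC-/-, and hollow points are the 2 mice left out of the fits. In control mice Gsdmc4 falls to 27.8% at CT13 while Gsdmc2 reaches 53.2%.

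The third question was how the members vary from mouse to mouse once the mean of each genotype and time is taken away. The copies varied most: the SD within groups on the log2 scale was 0.509 for Gsdmc2, 0.557 for Gsdmc3, 0.559 for Gsdmc4 and 0.607 for Gsdmcl2 in control mice, against 0.416 for Gsdma, 0.139 for Gsdmd and 0.148 for Gsdme. Correlations were computed for 21 pairs of members in each genotype, with permutation p from 100000 shuffles within groups, two-sided and adjusted over 42 tests.

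The copies rose and fell together in single mice of both genotypes. In control mice Pearson's r was 0.986 for Gsdmc2 with Gsdmc3, 0.963 for Gsdmc2 with Gsdmc4 and 0.945 for Gsdmc3 with Gsdmc4 (n = 24, Spearman's rho 0.964, 0.971 and 0.933, permutation p = 1e-05 for each, the smallest the shuffles can give, adjusted p = 6e-05). Without the 2 mice farthest from the median of the first gene, r was 0.981, 0.955 and 0.927. In Bmal1 IEC-/- mice r was 0.963, 0.926 and 0.890 for these pairs (n = 22, rho 0.945, 0.932 and 0.876, permutation adjusted p = 0.000105, 0.000588 and 0.0042), and 0.954, 0.920 and 0.843 without the 2 farthest mice. Reads of alike stretches could be counted for the wrong copy, and this ties Gsdmc2, Gsdmc3 and Gsdmc4 to an unknown degree.

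Gsdmcl2, whose searched transcript of 1911 bases shares 0 windows of 150 bases with any other gene, also varied with them. Its annotated exons together cover 3175 bases. Those outside that transcript were not searched, nor were windows that are alike but not identical. Its r was 0.947 with Gsdmc2, 0.942 with Gsdmc3 and 0.926 with Gsdmc4 in control mice (rho 0.943, 0.892 and 0.919, permutation adjusted p = 6e-05 for each), and 0.930, 0.925 and 0.883 without the 2 farthest mice. Among Bmal1 IEC-/- mice r was 0.940, 0.890 and 0.918 (rho 0.955, 0.874 and 0.895, permutation adjusted p = 6e-05, 0.00115 and 0.00028), and 0.921, 0.855 and 0.895 without those mice. All 6 pairs within the row thus passed in both genotypes.

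Gsdmd varied with the row in control mice. Its r was 0.704 with Gsdmc2, 0.736 with Gsdmc3, 0.702 with Gsdmc4 and 0.566 with Gsdmcl2 (rho 0.563, 0.627, 0.571 and 0.437, permutation p = 0.00297, 0.00194, 0.00241 and 0.0184, adjusted p = 0.00832, 0.00627, 0.00723 and 0.0482). Without the 2 farthest mice these were 0.548, 0.598, 0.581 and 0.39. The last pair did not pass with Spearman's rho, with TMM-scaled values or with a pseudocount of 5 (permutation adjusted p = 0.159, 0.0542 and 0.0502), each of which left 9 pairs of members in control mice.

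For Bmal1 IEC-/- mice r of Gsdmd with the 4 genes was 0.387, 0.369, 0.193 and 0.374 (rho 0.322, 0.368, 0.186 and 0.296, permutation adjusted p = 0.142, 0.177, 0.534 and 0.254), and 0.209, 0.389, 0.178 and 0.271 without the 2 farthest mice. None passed, and the difference between genotypes was not tested. When only the genotype mean was removed, so that time of day stayed in, r of Gsdmd with these genes in control mice was 0.12, 0.09, -0.06 and -0.24, and 6 pairs passed in place of 10.

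Gsdma and Gsdme passed with no other member. Gsdma had r from 0.103 to 0.274 with the other members in control mice and from -0.167 to 0.337 in Bmal1 IEC-/- mice, and r of Gsdme with the row ran from -0.276 to -0.163 and from -0.267 to -0.180. In all, 10 pairs passed in control and 6 in Bmal1 IEC-/- mice.

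**Figure D5:**
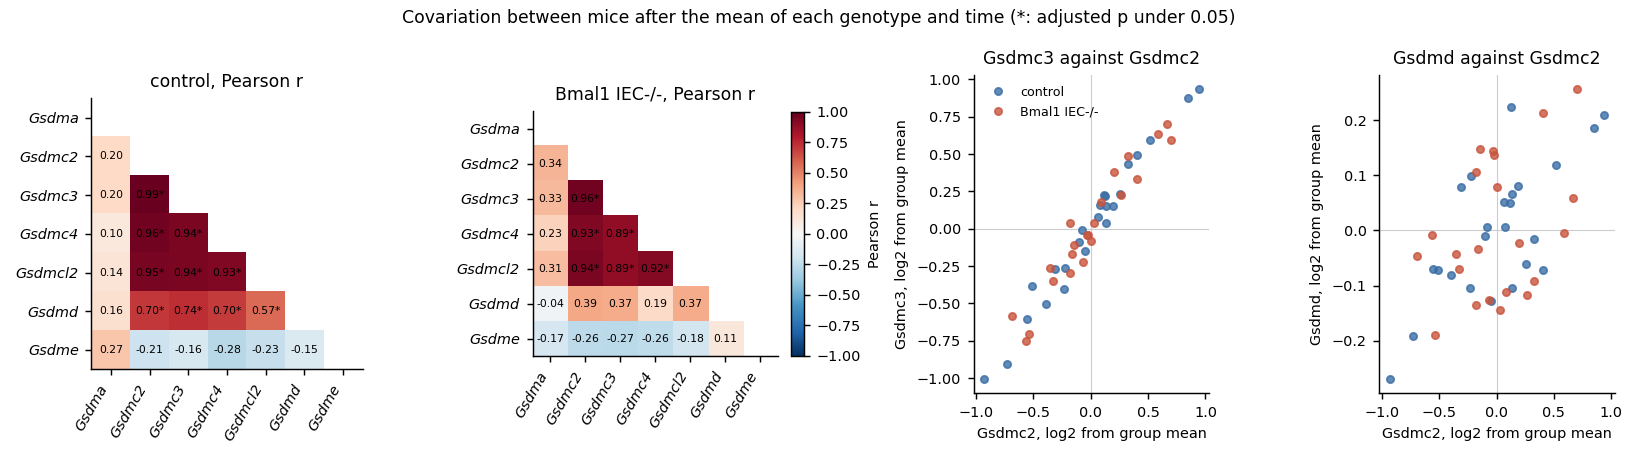
Left, Pearson's r (colour and number) between members over mice after the mean of each genotype and time was removed, for control (n = 24) and Bmal1 IEC-/- mice (n = 22), with a star for a permutation adjusted p under 0.05. Right, log2 values of Gsdmc3 and of Gsdmd as distance from the group mean against those of Gsdmc2, 1 point per mouse, blue for control and red for Bmal1 IEC-/-. Gsdmc3 follows Gsdmc2 along a line in both genotypes (r = 0.986 and 0.963), and r of Gsdmd with Gsdmc2 was 0.704 and 0.387.

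The same residual values were set against the summed level of 12 lists of cell type markers and the total count of the mouse, 182 relations in all. In Bmal1 IEC-/- mice the tuft cell list went with Gsdmc2 (r = 0.823, rho = 0.768, n = 22) and Gsdmc3 (r = 0.824, rho = 0.819), with a permutation p of 0.00014 and an adjusted p of 0.0127 for both, and r of 0.764 and 0.761 without the 2 farthest mice. Tuft cells are epithelial cells that sense parasites and start type 2 responses. With Spearman's rho the adjusted p was 0.0655 for Gsdmc2 and 0.0328 for Gsdmc3 by permutation.

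For Gsdmc4 and Gsdmcl2 r with the tuft cell list was 0.750 and 0.733 (rho 0.746 and 0.695, 0.642 and 0.676 without the 2 farthest mice), and neither passed (permutation adjusted p = 0.112 for both). In control mice r with that list was from 0.442 to 0.579 for Gsdmc2, Gsdmc3, Gsdmc4 and Gsdmcl2, and none passed. No other relation of the 182 passed, among them those with the total count. The summed level of the tuft cell list ran from 238 to 429 in control and from 231 to 426 in Bmal1 IEC-/- mice, and 0 of its 6 genes differed between genotypes.

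Over all 46 mice, genes outside the family whose residual values were among the 5 most like those of the summed Gsdmc2, Gsdmc3 and Gsdmc4 were Grin3a (r = 0.779), a glutamate receptor subunit, Slc6a14 (0.734), an amino acid transporter, D630039A03Rik (0.705) and Cyp2d37-ps (0.687). Grin3a was also higher in Bmal1 IEC-/- mice, by 0.70 ± 0.13 on the log2 scale (SE; edgeR adjusted p = 1.55e-04), and the other 3 did not pass. For Gsdmd the 5 were Slc51a (r = 0.759), a subunit of the bile acid exporter of enterocytes, Mep1b (0.677) and Cdhr5 (0.632), both brush border proteins, Stap2 (0.670) and Galt (0.642). Slc51a was higher in Bmal1 IEC-/- mice by 0.59 ± 0.06 (edgeR adjusted p = 5.46e-11), and the other 4 did not pass.

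The most alike genes reached r of 0.581 for Gsdma (P3h3) and 0.601 for Gsdme (Ahsa1), followed by Fam32a, Hmox2, Igkv8-21 and Ltbp2 for Gsdma and by Snx25, Bud31, Oma1 and Hbs1l for Gsdme. These r are the highest of all genes tested, which share libraries and depth, and are given as a description without p.

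Genes that act with gasdermins were counted in lists of their roles. Over all times, 728 of all 15073 genes tested were higher in Bmal1 IEC-/- mice and 862 lower, which is the background for these counts. Of 11 tested inflammasome sensors and adaptors, which detect microbial signals and activate caspase-1, 4 were higher in Bmal1 IEC-/- mice and 0 lower, with a median log2 difference of 0.02 over the list, against 0.00 over all genes. Pycard, the adaptor ASC, rose from 394 ± 63.5 (SD, n = 24) to 522 ± 56.2 normalized counts (n = 22), by 0.43 ± 0.05 on the log2 scale (SE; edgeR adjusted p = 6.85e-09). The sensors Nlrp6, Nlrp9b and Naip1 were higher by 0.14, 0.25 and 0.16 (edgeR adjusted p = 0.0328, 0.00276 and 0.0242). JTK_cycle called 9 of the 11 genes in control and 3 in Bmal1 IEC-/- mice, against 48.8% and 28.5% of all genes.

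Of 7 tested proteases that cut gasdermins, 2 were lower and 0 higher, with a median of -0.06. These were the granzymes of cytotoxic lymphocytes: Gzma, which cuts gasdermin B in humans, was at 16.4 ± 8.02 normalized counts (SD) with Bmal1 and at 5.54 ± 3.61 without it in the epithelium, a log2 difference of -1.55 ± 0.26 (SE; edgeR adjusted p = 2.66e-05), and Gzmb, which cuts gasdermin E, had 14.2 ± 5.25 and 7.004 ± 4.90, -1.004 ± 0.22 (edgeR adjusted p = 9.45e-04). Casp1, the gene of the list with the most reads, which cuts gasdermin D, had a log2 difference of 0.12 ± 0.04 (edgeR adjusted p = 0.0558) and peaked at 4 h in control mice in JTK_cycle. At CT13 alone Casp1 and Casp4 were higher. Elane had 0 reads in all mice. In the list of 9 tested leukocyte genes, 1 was lower and 0 higher, and its summed level ran from 367 to 598 in control and from 350.5 to 576 in Bmal1 IEC-/- mice. Their part in the lower granzymes was not tested.

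Of 5 tested cargo and membrane rupture genes, 1 was higher and 1 lower, with a median of 0.00. Il18, an interleukin that leaves through gasdermin pores, rose from 77.9 ± 19.2 (SD, n = 24) to 112 ± 24.7 (n = 22), by 0.54 ± 0.08 (SE; edgeR adjusted p = 3.98e-06), while Il1b, near the low end of the counts, went from 8.57 ± 3.08 to 5.66 ± 2.77, -0.59 ± 0.19 (edgeR adjusted p = 0.0315). Hmgb1, with the most reads of the list, had a log2 difference of 0.00 ± 0.03. Of 9 pore regulators, genes for enzymes that modify gasdermin D, for its transcription factors and for membrane repair, 1 was lower and 0 higher, with a median of 0.03. It was Irf2, a transcription factor that drives Gsdmd, by -0.16 ± 0.04 (edgeR adjusted p = 0.0128), beside the 0.05 ± 0.04 of Gsdmd itself. Chmp3, of the membrane repair machinery, was the one with the most reads at 750.2 ± 56.3 and 749 ± 69.0.

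Of 9 tested genes of the type 2 cytokine axis, 2 were higher and 1 lower, with a median of 0.04. Retnlb and Ang4, secreted antimicrobial proteins of goblet and other crypt cells that type 2 cytokines raise, went from 7.34 ± 5.17 (SD, n = 24) to 143 ± 166 normalized counts (n = 22) and from 40.3 ± 35.2 to 196 ± 179, log2 differences of 4.18 ± 0.41 and 2.28 ± 0.34 (SE; edgeR adjusted p = 4.82e-11 and 3.06e-06). Clca1, a goblet cell product that stands in this list beside Retnlb and Ang4 and has the most reads of it, went the other way. It fell by 0.62 ± 0.10 on the log2 scale (edgeR adjusted p = 8.57e-06). The cytokines themselves were at or near 0, with a mean of 0 and 0.0444 normalized counts for Il13 and 0.300 and 0.307 for Il5, and Il4 at 4.55 and 5.71. Their receptor subunit genes Il4ra and Il13ra1 had log2 differences of 0.13 ± 0.05 and 0.04 ± 0.04 (edgeR adjusted p = 0.109 and 0.614).

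Among the other marker lists, the genotype difference over all times was called for 3 of 8 surface colonocyte genes (Car4, Slc26a3 and Guca2a, all lower), 2 of 7 smooth muscle genes (lower), 3 of 7 goblet cell genes higher and 1 lower, 3 of 8 general epithelial genes higher and 1 lower, 1 of 8 crypt base genes lower, 1 of 6 enteroendocrine genes higher, and 1 gene each, lower, of the lists of fibroblasts and of enteric neurons and glia. None of 3 tested distal Hox genes was called, and of 12 clock genes 2 were higher and 7 lower. Among all 15073 genes tested, 728 were higher and 862 lower. The summed level of surface colonocyte genes ran from 43253 to 63732 in control and from 42931 to 63434 in Bmal1 IEC-/- mice. Of the squamous epithelium genes, checked because Gsdma is a skin gene, 2 of 7 could be tested and 0 were called, Krt6a had 0 reads, and the summed level was 6.46 to 31.98 in control and 8.79 to 20.6 in Bmal1 IEC-/- mice. Their part in the levels of the gasdermins was not tested.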

How the data were processed

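The authors trimmed paired reads of poly(A) RNA, aligned them to mm10 with STAR 2.7.5c, and with a minimum mapping quality of 4 counted those in exons of 1 gene with featureCounts 1.4.6. The table deposited by the authors gives raw read counts, not normalized. Identifiers were matched to GENCODE vM21, where 55141 of 55401 were found. Normalized counts are counts divided by median-of-ratios size factors of the 46 mice.

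Genes kept by filterByExpr were tested with edgeR 4.0.16 (TMM, quasi-likelihood F test, Benjamini-Hochberg adjustment over all genes tested, threshold 0.05) in models of genotype and time, of 12 groups, of genotype, period and their interaction, and of a 24 h cosine per genotype. Rhythms were tested with an own JTK_cycle (exact null distribution, 12 phases, a step of 2 h). Correlations used log2(normalized count + 1). DESeq2 1.42.0, other normalizations and filters, all 48 mice and leaving out each mouse were the alternatives. Coding sequences of the annotated transcripts were aligned with MAFFT 7.526. Simulated counts were used to check the edgeR tests of genotype over all times and at CT13. They also served to check time of day in control mice, the change of rhythm and JTK_cycle, but not the other steps.

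The members, gene lists, tests and alternatives were chosen with earlier results of these data known. The genes named are the 8 members, genes of the pathway lists that differed between genotypes or had the most reads of their list, Arntl, Nr1d1 and Dbp, and the 5 genes most like the summed copies, Gsdma, Gsdmd and Gsdme. Il4, Il5, Il13, Il4ra, Il13ra1 and the named marker genes were chosen after their values were seen. Mice of a group are separate animals. No label gives a batch, so none could be modelled. The floor of 3 reads covers counting error only. Intervals of log2 differences come from the edgeR quasi-likelihood fits, so they also cover the spread between mice of a group. Protein sequences were not used here. Results for 2 genes are not reported here.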

Additional observations from a re-analysis of the deposited data

Results flagged for a closer look

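In 3 of the 77 groups of 4 mice examined, 11 for each of the 7 tested members, 1 mouse stood farther from the nearest other mouse than Dixon's test allows at the 5% level, which chance alone reaches in about 1 group in 20. The first was control mouse SV442 at CT5, with 432 normalized counts of Gsdmc3 while the other 3 mice of the group had 731 to 773. It was also the lowest of its group for the other 6 tested members. The second was control mouse SV421 at CT13, with 433 normalized counts of Gsdmc3 against 178 to 221 in the others, and also the highest of its group for Gsdmc2, Gsdmc4, Gsdmcl2, Gsdma and Gsdmd. The third was control mouse SV468 at CT1, with 202 normalized counts of Gsdme against 162 to 167. Without SV442 or SV421 no call of the Gsdmc copies over all times, at CT13 or for a rhythm in control mice was lost.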

How the results depend on the processing

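No member called over all times, and no call of a Gsdmc copy or Gsdmcl2 at CT13 or for a rhythm in control mice, was lost under any alternative run, and no called difference between groups turned its direction. With all 48 mice 2 members were called at CT1. Without a filter on low counts edgeR called 4 members each at CT1, CT9, CT17 and CT21 and 4 for time of day in Bmal1 IEC-/- mice. In that fit, over 32471 genes, the prior degrees of freedom were estimated as infinite, against 8.645 with the filter, so that the spread of each gene was set to the trend. With RLE normalization 0 members were called for time of day in Bmal1 IEC-/- mice, and a cosine curve in edgeR called 2 members for a rhythm there, Gsdma with an adjusted p of 0.04996. With time of day left in the values, 6 pairs of members passed in control mice, and r of Gsdmd turned to -0.06263 with Gsdmc4 and -0.2394 with Gsdmcl2. The cause of these changes was not tested where none is given. Leaving out each mouse in turn gave 0 to 3 members called at CT17, 0 to 1 for time of day and 0 to 1 for day against night in Bmal1 IEC-/- mice, and 1 to 2 for a rhythm there. The summed copies had a genotype log2 difference of 0.79 (edgeR adjusted p = 4.67e-05). The rank correlation was added after seeing the data. No paired analysis was possible because each mouse has a number of its own. At 2 mice, the Bmal1 IEC-/- group at CT1 limits what can be called there, and Gsdma, at 5 to 55 reads a mouse, is limited by depth.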
